A study of Petunia x hybrida with 48 samples.

Results

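Axillary buds of garden petunia (Petunia x hybrida, the inbred laboratory line V26) were compared 24 h after the phosphate (P) supply of the roots was lowered, called withdrawal here. All libraries of that comparison were taken, by their treatment and experiment labels alone: 12 from plants moved to 5 µM phosphate (low P) and 12 from plants moved to fresh medium with 250 µM phosphate (high P), 24 of the 48 libraries of the series. Both groups were grown hydroponically and started at 250 µM. The low P plants had thus been at 5 µM for 24 h, and the high P plants had stayed at 250 µM. Each group holds 3 replicates of each of 4 buds on the main stem, the basal axillary buds 2 and 3 and the apical axillary buds 6 and 7. A replicate is a pool of buds cut from several plants with a scalpel, and p-values measure the spread between the libraries. Libraries of different buds with the same treatment and replicate number were modelled as correlated, so the 12 libraries per treatment are not independent replicates. The plants stood in a few shared containers, and the phosphate level was set in the solution of a container. The container of each pool is not given, so differences between containers and between treatments cannot be told apart. The question was whether small responses that the buds share can be seen when the 4 positions are analysed together with bud position as a covariate. The other 24 libraries come from a separate experiment in the opposite direction, in which plants started at 5 µM were resupplied with 250 µM for 24 h or kept at 5 µM, again in buds 2, 3, 6 and 7 with 3 replicates each.

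Plants short of phosphate switch on a well described programme. SPX proteins sense the phosphate state of the cell and hold back the PHR transcription factors, and when phosphate runs low PHR factors activate genes for uptake, for recycling and for the SPX proteins themselves. Transporters then take up and move more phosphate, acid phosphatases free it from organic compounds, and membrane phospholipids are broken down and replaced by galactolipids and sulfolipids.

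No gene passed the test for a response to withdrawal shared by the 4 buds. Of the phosphate-starvation genes, purple acid phosphatase 17 and glycerol-3-phosphatase 1 ranked 2 and 6 among all genes by p, and the gene at rank 1 had no description. With limma, 0 of 22363 genes tested (percent called 0) had an adjusted p below 0.05 in the pooled comparison, and the lowest adjusted p was 0.887. At an unadjusted p below 0.05 there were 1147 genes, 573 with low P above high P (2.56% of the genes tested) and 574 with low P below (2.57%). The estimated differences were small, with a median size of 0.08 on the log2 scale and 70 genes past 2-fold. The median 95% interval of a gene reached 0.21 on either side of its estimate. That interval is not adjusted for the number of genes tested, so shared changes well above 0.21 could also go uncalled. Purple acid phosphatase 17, with an estimate of +1.82, was not called. With precision weights 3 genes passed by limma, and 2 of them were lower in low P. Chalcone synthase B (Scf00164g00313.1), of flavonoid synthesis, was at −1.57 (adjusted p = 0.0113, and −0.72 without weights), allene oxide synthase (Scf00684g00511.1), of jasmonate synthesis, at −1.89 (adjusted p = 0.0286, and −0.95 without weights), and glycerol-3-phosphatase 1 (Scf00469g00218.1) at +1.20 (adjusted p = 0.0286, and +0.86 without weights).

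The libraries summed to 40.2 to 45.1 M (M, mega) normalized counts in low P and 39.7 to 46.4 M in high P. Pools of different buds with the same treatment and replicate number deviated together, with a median correlation across genes of 0.19 in low P and 0.28 in high P, and this correlation was kept in the model. High P replicate 1 stood apart from the other high P pools, with 570 of the 22363 genes tested called against them. Its 14 jasmonate genes were at a median of +0.36 on the log2 scale relative to the other high P pools. In the same comparison they were at −0.20 for high P replicate 2 and −0.37 for high P replicate 3. Low P replicate 1 stood apart from the other low P pools as well, with 485 genes called. The same test called 7 and 0 genes for high P replicates 2 and 3, and 75 and 17 for low P replicates 2 and 3. Medians of gene lists without the 4 libraries of high P replicate 1 are given where they moved by over 1.5 times. List medians without low P replicate 1 are not given. Marker genes of meristem and epidermis and of dividing cells, and those of leaf and woody stem that a cut bud could carry, were all measured, and none was at 0 in all libraries.

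Among the SPX genes, which encode the phosphate sensors, all 4 had a higher mean in low P (48.5% of all genes tested did). SPX domain gene 1 (Scf01269g00014.1) had a lowest, median and highest value of 364, 573 and 1928 normalized counts in low P, against 302, 512 and 969 in high P. All low P libraries of buds 2 and 6 lay above all high P libraries of the same bud, whereas the groups overlapped in buds 3 and 7. The difference was +0.51 ± 0.23 on the log2 scale (SE, unadjusted p = 0.0358), and by bud it was +0.86, +0.81, +0.37 and 0.00 in buds 2, 3, 6 and 7. SPX domain gene 2 (Scf00073g01422.1) had 608, 991 and 3165 in low P, against 540, 750 and 2214 in high P, a difference of +0.49 ± 0.26 (unadjusted p = 0.069). The second SPX domain gene 1 (Scf00944g00034.1) differed by +0.28 ± 0.21 and SPX domain gene 3 (Scf00803g00014.1) by +0.34 ± 0.26, and neither exceeded its error at p below 0.05. SPX domain gene 3 was the exception among the buds, with +0.42, +0.79 and +0.63 in buds 2, 3 and 6 and −0.47 in bud 7.

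**Figure D1:**
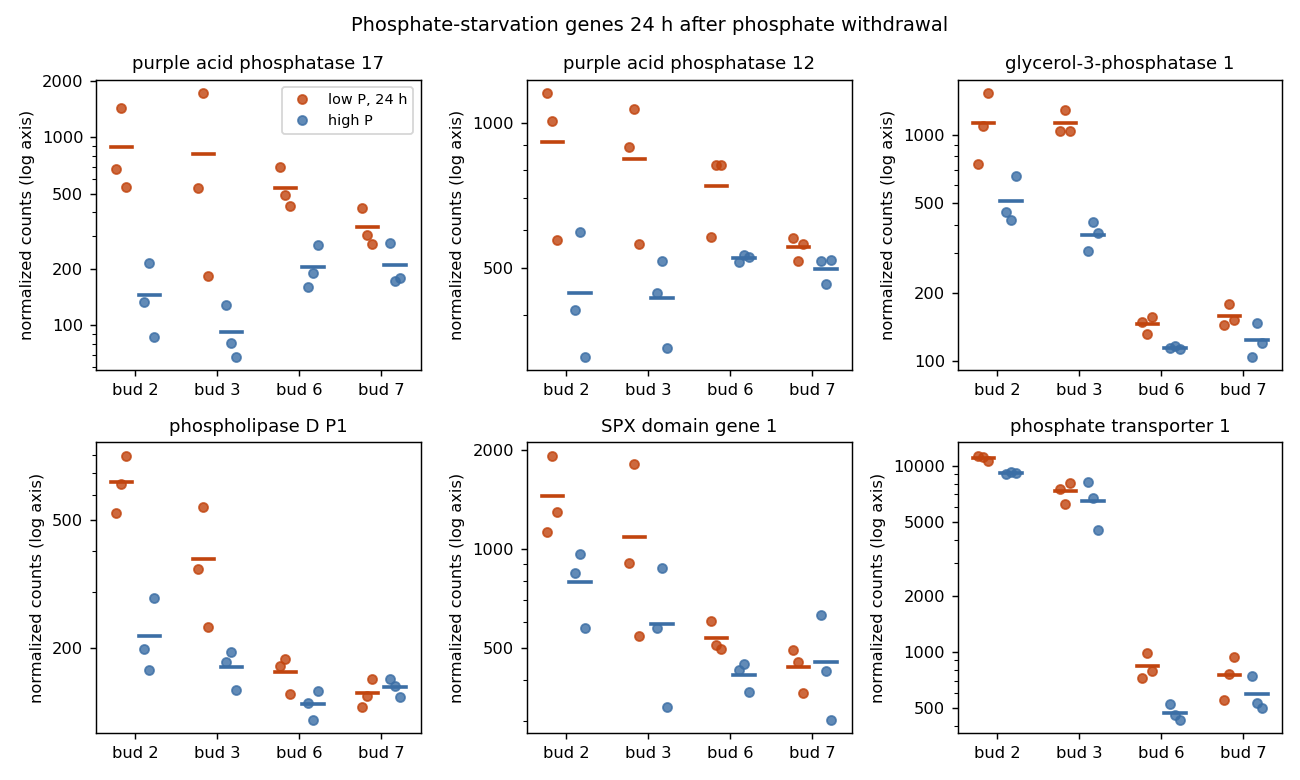
Normalized counts (log axis) of 6 phosphate-starvation genes in each library by bud, low P left of high P, with a bar at the mean of the 3 replicates. The low P values of purple acid phosphatase 17 lie above all high P values of the same bud in buds 2, 3 and 6 and overlap them in bud 7, where the fitted difference was +0.67.

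Purple acid phosphatases free phosphate from organic esters, and purple acid phosphatase 17 (Scf00171g00924.1) had the largest positive estimate of all genes tested. In bud 2 it had 682, 1439 and 548 normalized counts in low P, against 133, 214 and 86.3 in high P. In bud 3 the values were 537, 1724 and 184 in low P, against 128, 80.8 and 67.9 in high P. In bud 6 they were 695, 493 and 433 in low P, against 160, 189 and 267 in high P. The low P libraries of these 3 buds lay above every high P library of the same bud. In bud 7 the groups overlapped, with 419, 304 and 272 in low P, against 276, 173 and 180 in high P. The pooled difference was +1.82 ± 0.40 on the log2 scale (95% interval 0.99 to 2.65, unadjusted p = 0.000148, adjusted p = 0.887), and without high P replicate 1 it was +1.89.

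Glycerol-3-phosphatase 1 (Scf00469g00218.1), which splits glycerol-3-phosphate into glycerol and phosphate, also had its largest differences in buds 2 and 3. It had a lowest, median and highest value of 131, 459 and 1528 in low P, against 104, 226 and 658 in high P. All low P libraries exceeded all high P libraries in buds 2, 3 and 6, and in bud 7 a high P value of 147 lay between low P values of 144 and 151. Its difference was +0.86 ± 0.20 (unadjusted p = 0.000345), with +1.10 and +1.64 in buds 2 and 3, and +0.34 and +0.35 in buds 6 and 7.

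Purple acid phosphatase 12 (Scf00656g00311.1) had 518, 699 and 1157 in low P, against 326, 516 and 594 in high P, a difference of +0.64 ± 0.18 (unadjusted p = 0.00189). Its difference by bud was +1.02, +0.93, +0.48 and +0.15 in buds 2, 3, 6 and 7. A phosphatase described as related to pyridoxal phosphate phosphatase (Scf00207g01041.1) was scarce, with 2.64, 40.6 and 200 in low P, against 1.16, 12.9 and 51.7 in high P. It differed by +1.10 ± 0.40 (unadjusted p = 0.0109). One purple acid phosphatase 15 gene (Scf00106g01215.1) differed by +0.20 ± 0.09 (unadjusted p = 0.0266).

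Of all 16 genes for phosphate release, 9 had a higher mean in low P and 4 of those had p below 0.05, and the median was +0.10 (+0.06 without high P replicate 1). Purple acid phosphatase 10 (Scf00016g00349.1) had a lowest and a median value of 6512 and 9345 normalized counts in low P, against 7985 and 8979 in high P, and its estimate was −0.09 ± 0.14. A HAD superfamily acid phosphatase (Scf00207g01227.1) had the lowest estimate, −0.61 ± 0.30 (unadjusted p = 0.0532). An ectonucleoside triphosphate diphosphohydrolase (Scf00036g01811.1), which removes phosphates from nucleotides outside the cell, was at −0.19 ± 0.10 (unadjusted p = 0.0537).

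All 10 phosphate transport genes tested had a higher mean in low P, with a median of +0.15, and 2 had p below 0.05. Phosphate transporter traffic facilitator 1 (Scf00321g00008.1), known in Arabidopsis to help phosphate transporters leave the endoplasmic reticulum, showed the tightest difference. It had 1612, 1889 and 2219 normalized counts in low P, against 1432, 1740 and 1913 in high P, and low P exceeded high P in every library of 3 buds. The difference was +0.18 ± 0.05 (unadjusted p = 0.00081). The abundant phosphate transporter 1 gene (Scf00409g00422.1), a high-affinity importer, had 549, 3623 and 11314 in low P, against 432, 2631 and 9284 in high P. Its difference was +0.40 ± 0.13 (unadjusted p = 0.00629), with the largest value in bud 6 (+0.82). The PHO1 gene (Scf00602g00111.1), which exports phosphate to the xylem in Arabidopsis, differed by +0.19 ± 0.20 and phosphate transporter 4 (Scf00020g00726.1) by +0.09 ± 0.08. Genes of this family that are near-identical copies may share reads, so values of single copies are uncertain. The other 6 phosphate transporter 1 genes of the list were below the mean of 10 needed for the test. Their summed value was 1.85 to 48.1 (median 21.9) in low P libraries and 3.65 to 137 (median 10.9) in high P libraries, and the groups overlapped.

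Of the 10 genes for lipid remodelling, 9 had a higher mean in low P, 4 of them with p below 0.05, and the median was +0.15 (+0.24 without high P replicate 1). Phospholipase D P1 (Scf00037g01718.1), an enzyme that cleaves phospholipids, had 132, 209 and 794 in low P, against 120, 156 and 288 in high P. Its difference was +0.72 ± 0.24 (unadjusted p = 0.00623), and by position it was +1.59, +1.03, +0.32 and −0.07 in buds 2, 3, 6 and 7. A PLC-like phosphodiesterase (Scf00420g00727.1) had 852, 2428 and 6305 in low P, against 1047, 1564 and 2513 in high P, a difference of +0.73 ± 0.29 (unadjusted p = 0.0189).

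The remaining lipid genes differed less. Phosphatidate phosphatase LPIN3 (Scf00252g01217.1) differed by +0.19 ± 0.07 (unadjusted p = 0.013) and UDP-sulfoquinovose synthase (Scf00327g00612.1), which makes the sulfolipid head group, by +0.17 ± 0.07 (unadjusted p = 0.0317). Digalactosyldiacylglycerol synthase 2 (Scf00008g01718.1) was at +0.26 ± 0.13 and monogalactosyldiacylglycerol synthase 2 (Scf00088g00096.1) at +0.12 ± 0.10. Phosphoethanolamine N-methyltransferase (Scf00683g00459.1), which makes the phosphocholine of phospholipids, was the single member with a lower mean in low P, at −0.34 ± 0.15 (unadjusted p = 0.0335).

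**Figure D2:**
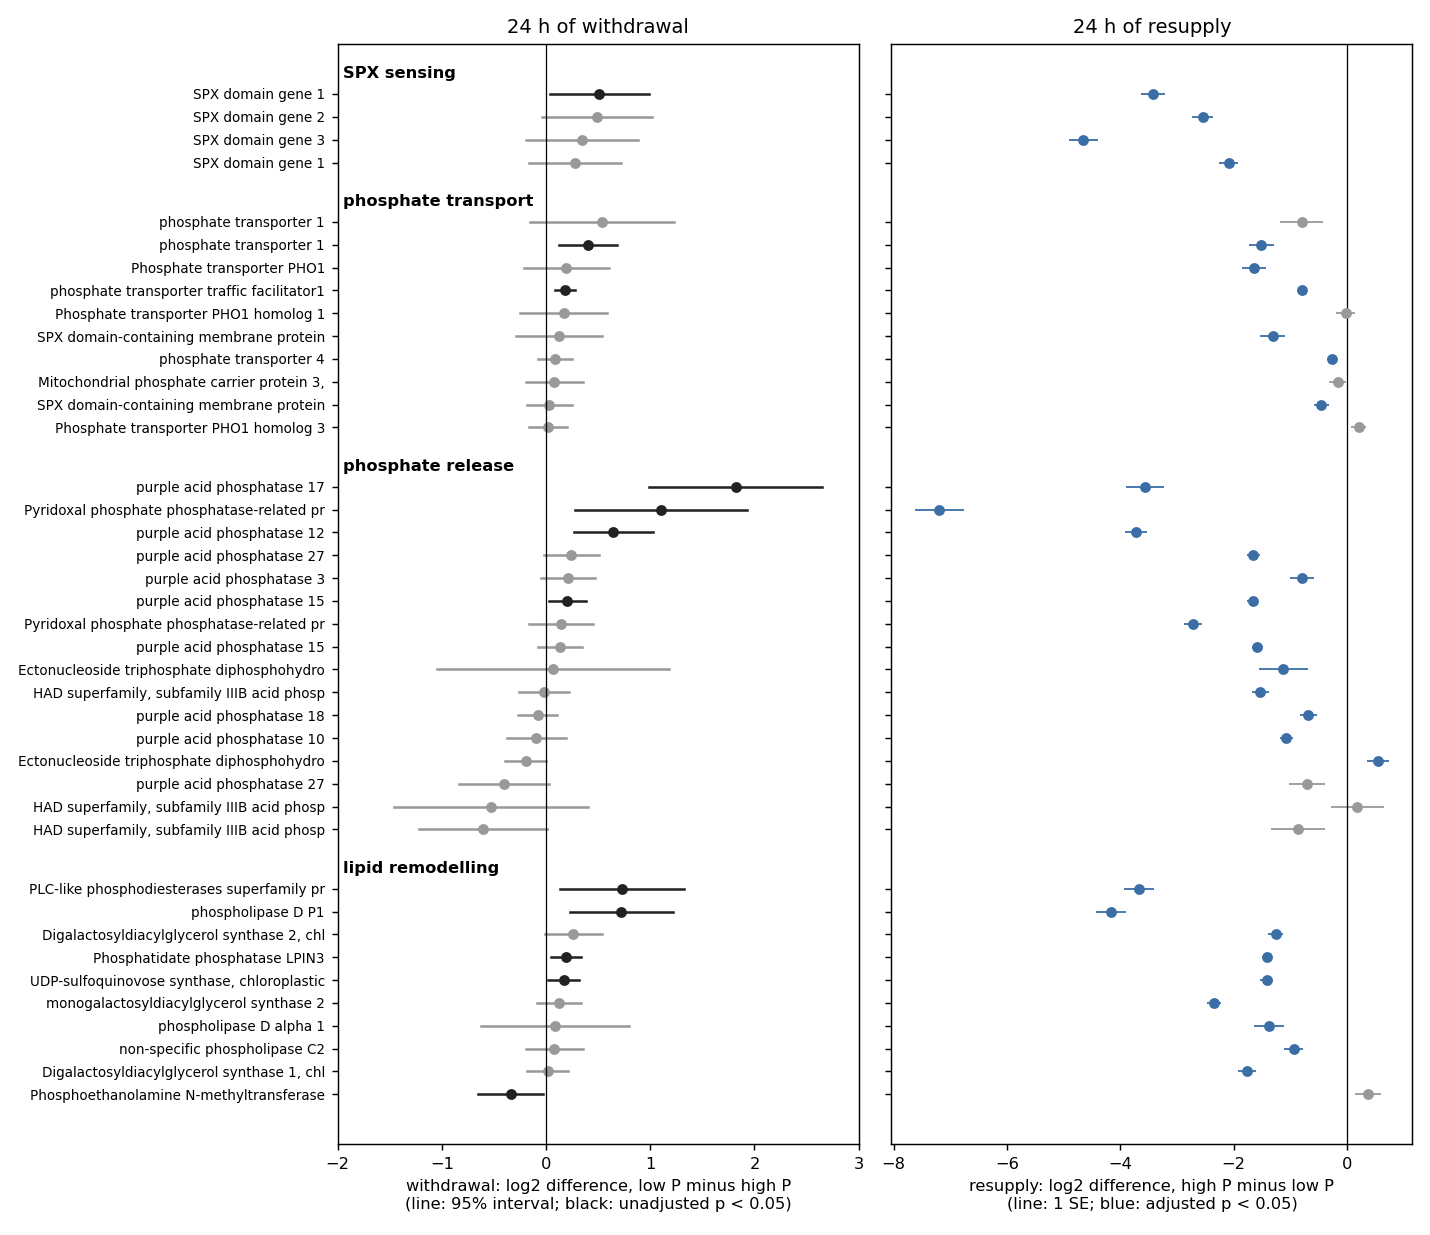
Log2 difference of the 40 phosphate genes tested, low P minus high P after withdrawal (left, line 95% interval, black where unadjusted p was below 0.05) and high P minus low P after resupply (right, line 1 SE, blue where adjusted p was below 0.05). The left points lie mostly right of 0 and the right points mostly far left of it, as 32 of the 40 genes had a higher mean in low P after withdrawal and 31 fell after resupply.

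Over the 4 phosphate lists, 46 genes were listed and 40 tested. Of these, 32 had a higher mean in low P and 8 a lower one (80%, against 48.5% of all genes), and 11 of the 32 had an unadjusted p below 0.05 (27.5%, against 2.56% of all genes). A single gene of the 40 had a lower mean in low P at that p. The median difference was +0.16, against 0.00 for all genes tested, and +0.16 without high P replicate 1. In 14 of the 40 genes (35%, against 12% of all genes) the difference was positive in all 4 buds. By bud the median was +0.19, +0.21, +0.22 and −0.01 in buds 2, 3, 6 and 7, and in buds 6 and 7 analysed alone it was +0.08. Markers of other tissue moved with this: all 9 leaf photosynthesis genes had a higher mean in low P (median +0.19, none at p below 0.05), with sums of 73978 to 316037 in low P and 65740 to 214293 in high P. The 11 woody stem genes had a median of +0.18 (8 positive), with sums of 1364 to 3261 in low P and 1219 to 2820 in high P. The part of such tissue in the phosphate result was not tested. In bulk tissue, a change in the share of a cell type and a change in RNA per cell cannot be told apart.

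The same genes after resupply gave larger differences in the opposite direction. In the resupply experiment, 6309 of 22584 genes tested rose (27.9%) and 5975 fell (26.5%) in resupplied high P plants relative to plants kept in low P. The 2 experiments were normalized separately and share no libraries, so the levels below are not compared between them. Of the 40 phosphate genes, 31 fell and 1 rose on resupply, with a median difference of −1.39. The lists were drawn mainly from genes that the study found to respond to resupply, so that count is not independent evidence of its direction. Purple acid phosphatase 17 (Scf00171g00924.1) had a lowest, median and highest value of 741, 2077 and 15062 in resupplied high P buds, against 19261, 34864 and 50071 in buds kept in low P, and fell by 3.57 on the log2 scale (adjusted p = 5.87e-08). The difference on resupply was −7.19 for the pyridoxal phosphate phosphatase-related gene (Scf00207g01041.1), −4.65 for SPX domain gene 3 (Scf00803g00014.1), −4.16 for phospholipase D P1 (Scf00037g01718.1) and −3.72 for purple acid phosphatase 12 (Scf00656g00311.1).

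Genes that fell most on resupply had the highest median on withdrawal. All 10 genes tested in both experiments that fell more than 16-fold on resupply had a higher mean in low P after withdrawal, with a median of +0.74 and 5 of them at p below 0.05. The median was +0.19 for 30 genes that fell 8- to 16-fold (+0.30 without high P replicate 1), +0.08 for 95 that fell 4- to 8-fold (+0.20), +0.02 for 672 that fell 2- to 4-fold (+0.10) and +0.02 for 5005 that fell less than 2-fold (+0.04). With all libraries the last 2 classes were not in order, as 53.7% of the genes that fell 2- to 4-fold were positive, against 59.5% of those that fell less. Among 135 genes that fell more than 4-fold (0.62% of the 21786 genes tested in both), 85 had a higher mean in low P (63.0%, against 48.1%) and 19 had p below 0.05 (14.1%, against 2.53%), and the median was +0.12. By bud their median was +0.06, +0.01, +0.42 and 0.00 in buds 2, 3, 6 and 7, so that bud 6 carried most of it. The pooled median ranged with the pools, at +0.23 without high P replicate 1 and +0.02 without high P replicate 3. The 124 of these genes outside the phosphate lists had a median of +0.09 (+0.22 without high P replicate 1), with 74 positive, and by bud +0.02, −0.03, +0.42 and −0.01. Among the 404 genes that rose more than 2-fold on resupply, 135 (33.4%) had a higher mean in low P after withdrawal and the median was −0.06 (−0.09 without high P replicate 1). Across the 21786 genes, Spearman's rho between the 2 differences was −0.21 and Pearson's r −0.13, both as descriptions over genes that are not independent.

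**Figure D3:**
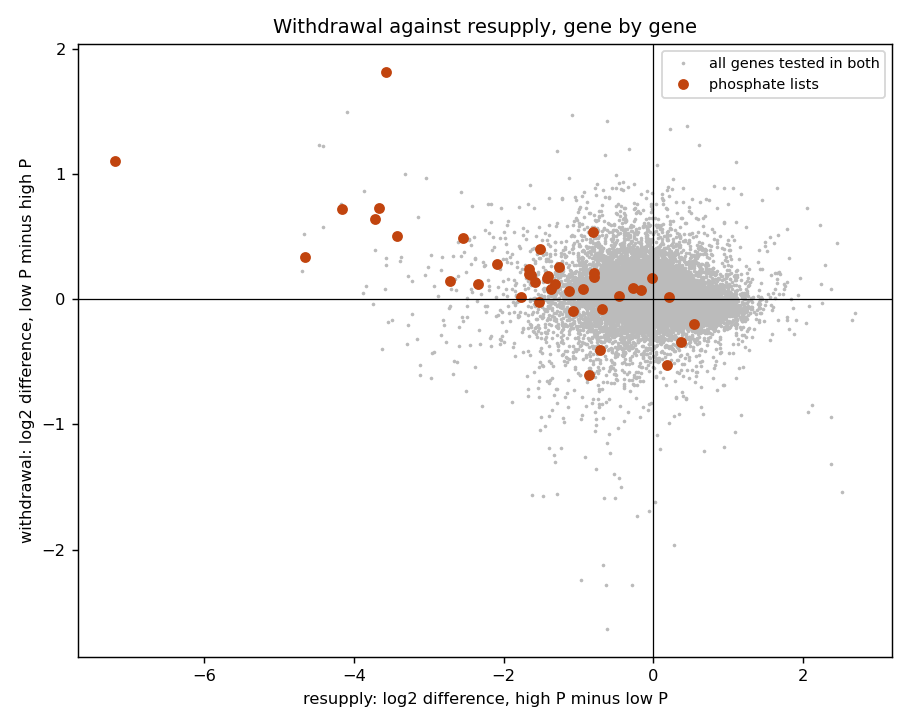
Log2 difference after resupply (high P minus low P, horizontal) against log2 difference after withdrawal (low P minus high P, vertical) for 21786 genes, with the phosphate lists in orange. Phosphate genes at the far left, which fell most on resupply, lie above 0 on the vertical axis, up to +1.82 for purple acid phosphatase 17, while most genes lie within 1 log2 unit of 0 on both axes.

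Read the other way, genes with p below 0.05 on withdrawal were divided unequally on resupply. Of the 551 tested in both with low P above high P, 226 fell on resupply (41.0%, against 26.7% of all) and 38 rose (6.90%, against 28.7%). Of the 566 with low P below high P, 144 fell (25.4%) and 213 rose (37.6%).

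Beyond the phosphate lists, genes with the lowest p included several without a change on resupply. The TIM17-2 subunit of the mitochondrial inner membrane import machinery (Scf00473g00011.1) had 488, 666 and 902 normalized counts in low P, against 369, 515 and 801 in high P. All low P libraries lay above all high P libraries in each of the 4 buds, and the difference was +0.29 ± 0.07 (unadjusted p = 0.000457). On resupply the difference was +0.04 (adjusted p = 0.76). Sugar transport protein 1 (Scf01019g00112.1), a hexose importer, had 1241, 2517 and 5378 in low P, against 787, 2064 and 4286 in high P, a difference of +0.34 ± 0.09 (unadjusted p = 0.000662). A leucine-rich repeat receptor-like kinase (Scf00041g01422.1) had 9.43, 583 and 2869 in low P, against 2.55, 375 and 2190 in high P, and differed by +1.20 ± 0.34 (unadjusted p = 0.00189).

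Further genes with low P above high P included a protease, wall enzymes and a gene of unknown function. A subtilase (Scf00694g00049.1), a secreted protease, had 946, 2907 and 6539 in low P, against 441, 2256 and 4461 in high P, a difference of +0.54 ± 0.13 (unadjusted p = 0.0005), and fell by 2.00 on resupply. The beta-xylosidase 1 gene Scf00065g00029.1, whose enzyme trims wall xylans, differed by +0.40 ± 0.10 (unadjusted p = 0.000585) and its second copy Scf00126g00232.1 by +0.46 ± 0.13 (unadjusted p = 0.00173). A conserved gene with no known function (Scf00159g01025.1) differed by +1.22 ± 0.33 (unadjusted p = 0.00111) and fell by 4.41 on resupply. Of the 12 described genes with the lowest p and low P above high P, 6 fell on resupply and the other 6 were not called there. Of all genes tested in both experiments, 26.7% fell and 28.7% rose. Many genes were described because the study listed them for differences between buds or on resupply, so these counts are not independent evidence.

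Genes with low P below high P had other functions. Tyrosine aminotransferase 3 (Scf00876g10023.1), an enzyme of tyrosine breakdown, had 498, 977 and 4230 in low P, against 627, 2456 and 6406 in high P. In 3 buds all low P libraries lay below all high P libraries, and the difference was −0.85 ± 0.21 (unadjusted p = 0.000568). It fell by 0.90 on resupply as well, so its estimates in the 2 experiments do not mirror each other. Homeobox protein 22 (Scf00447g00082.1), a transcription factor, had 5.07, 56.0 and 196 in low P, against 10.8, 80.7 and 237 in high P. It differed by −0.63 ± 0.18 (unadjusted p = 0.00239) and rose by 1.11 on resupply (adjusted p = 0.01). Of the 12 described genes with the lowest p in this direction, 7 fell on resupply and 1 rose, against 26.7% and 28.7% of all genes tested in both. The same limit of the descriptions applies to this count.

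The lowest p of all genes belonged to a gene without a description, Scf00017g03211.1, with 205, 421 and 570 in low P, against 268, 505 and 748 in high P, a difference of −0.32 ± 0.07 (unadjusted p = 0.000118). A second one, Scf00739g00035.1, had 270, 1228 and 1911 in low P, against 1529, 2520 and 4187 in high P. All its low P values lay below all high P values in each of the 4 buds, its difference was −1.18 ± 0.27 (unadjusted p = 0.00021), and on resupply it rose by 0.94.

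**Figure D4:**
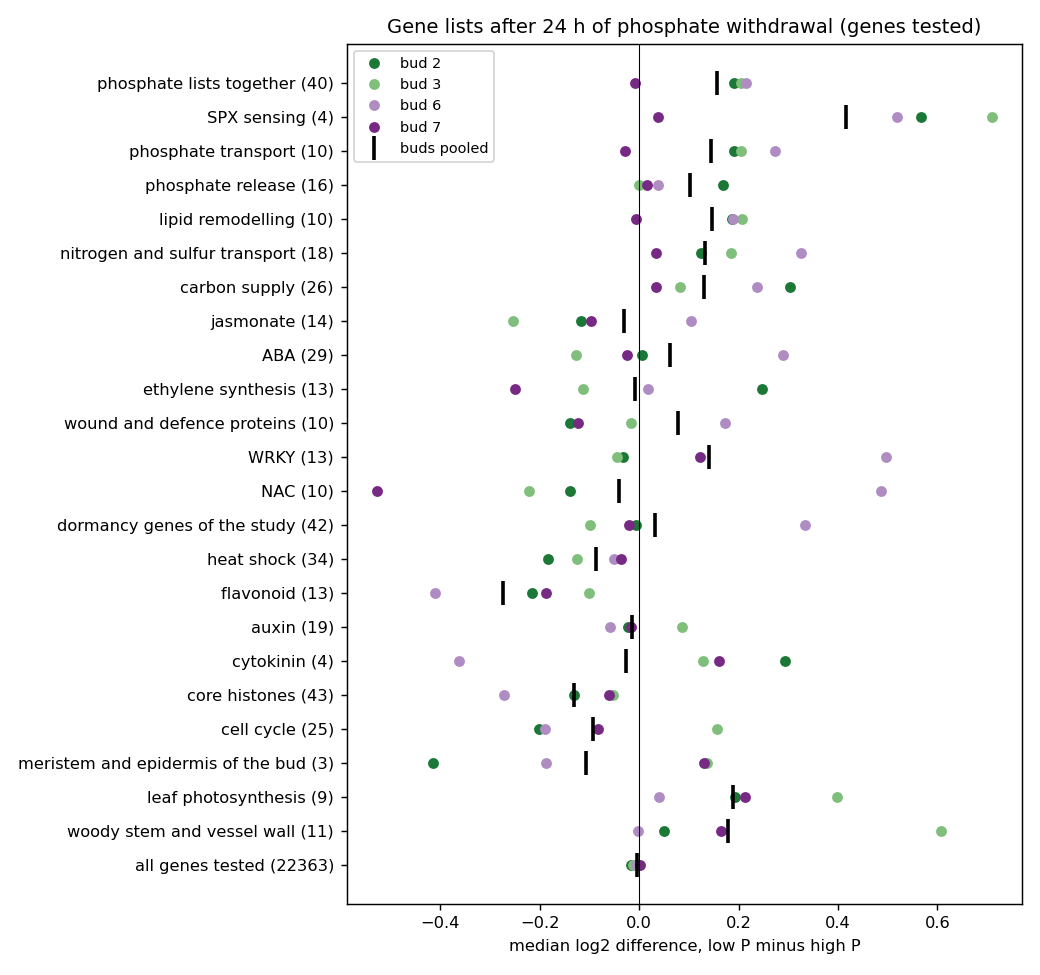
Median log2 difference, low P minus high P, of the members of each gene list in each bud (points) and in the pooled comparison (black bars), with the number of genes tested in brackets. The pooled medians of the phosphate lists lie right of 0 and those of core histones (−0.13), heat shock (−0.09) and flavonoid genes (−0.27) left of it.

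No member of the other lists was called in the pooled comparison, and their counts and medians are descriptions to be read against 48.5% positive and a median of 0.00 for all genes. Of 18 nitrogen and sulfur transport genes, 15 had a higher mean in low P, with a median of +0.13 (+0.24 without high P replicate 1), and 4 had p below 0.05. A sulfate transporter 3 gene (Scf00034g00911.1) had 102, 227 and 480 in low P, against 61.6, 136 and 340 in high P, a difference of +0.77 ± 0.25 (unadjusted p = 0.00564). Of 26 carbon supply genes, 19 had a higher mean in low P (median +0.13), 5 with p below 0.05. Sucrose-phosphate synthase (Scf00078g01015.1), which makes the precursor of sucrose, had 223, 1011 and 3719 in low P, against 181, 501 and 2022 in high P, a difference of +0.61 ± 0.18 (unadjusted p = 0.0027), and it fell by 2.16 on resupply. A gene for abscisic acid 8'-hydroxylase 4 (Scf00016g01819.1), an enzyme that breaks down abscisic acid, had 8.47, 52.3 and 86.1 in low P, against 3.79, 22.7 and 74.4 in high P. Its difference was +0.80 ± 0.27 (unadjusted p = 0.00676), and among all 29 abscisic acid genes 17 were positive, with a median of +0.06 (+0.17 without high P replicate 1).

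The core histone list, of genes expressed in dividing cells, also holds a linker histone gene (histone H1E, Scf00813g00127.1). Of its 43 genes, 42 had a lower mean in low P, with a median of −0.13 (−0.28 without high P replicate 1), and none had p below 0.05. Their median log2 deviation from the bud mean was averaged over the buds of each pool. It was −0.47, +0.06 and +0.18 in low P replicates 1, 2 and 3, against −0.24, +0.12 and +0.30 in high P. Low P replicate 1 was thus the lowest pool, and high P replicate 1 the next lowest. The median of −0.28 leaves out the latter and keeps the former. The median without low P replicate 1 is not given, so the size and sign of the difference may depend on that pool. All 43 together summed to 40386 to 555305 (median 273270) in low P and 46011 to 738041 (median 241885) in high P, a wide overlap. On resupply 41 of them rose. Among 25 cell cycle genes, 20 had a lower mean in low P with a median of −0.09, and cyclin B1 (Scf00003g05122.1), a driver of mitosis, was at −0.21 ± 0.12 (unadjusted p = 0.0926). By bud the cell cycle median was −0.20, +0.16, −0.19 and −0.08 in buds 2, 3, 6 and 7, so bud 3 went the other way. The protodermal factor and WUSCHEL-related genes of meristem and epidermis, 3 in all, had a median of −0.11, with −0.41, +0.14, −0.19 and +0.13 in buds 2, 3, 6 and 7.

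Of 34 heat shock genes, 25 had a lower mean in low P (median −0.09), 3 with p below 0.05. Averaged by pool, their median deviation from the bud mean was −0.19, −0.03 and +0.07 in low P replicates 1, 2 and 3. In high P replicates 1, 2 and 3 it was +0.03, +0.05 and +0.06. The lower level was thus mainly that of low P replicate 1. The 17.5 kDa class I heat shock protein (Scf00481g00732.1) had 271, 445 and 556 in low P, against 379, 582 and 683 in high P, a difference of −0.35 ± 0.12 (unadjusted p = 0.00703), and it fell by 1.86 on resupply. Of 13 flavonoid genes, 12 had a lower mean in low P with a median of −0.27. The lowest estimate was that of chalcone synthase B (Scf00164g00313.1), −0.72 ± 0.36 (unadjusted p = 0.0593), and the lowest p that of a chalcone-flavanone isomerase (Scf00167g01221.1), at −0.35 ± 0.12 (unadjusted p = 0.0067). The jasmonate list had a median of −0.03 with all libraries and +0.14 without high P replicate 1, and the NAC list −0.04 and +0.22, so the sign of both depended on that pool. WRKY transcription factors had a median of +0.14 (+0.35 without high P replicate 1), and WRKY DNA-binding protein 70 (Scf00732g00236.1), a regulator of defence, differed by +0.59 ± 0.18 (unadjusted p = 0.00298). The medians of the dormancy genes of the study (42 tested), wound and defence proteins (10), ethylene synthesis (13), auxin (19) and cytokinin (4) lay between −0.03 and +0.08, with the dormancy genes at +0.03 (+0.11 without high P replicate 1). Those of ethylene synthesis (+0.10), auxin (+0.01) and cytokinin (+0.04) were positive without high P replicate 1 and negative with all libraries, and quantile normalization also turned the sign of ethylene synthesis and auxin.

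Single buds analysed in the same model gave 3 genes in bud 2 (0.0134% of genes tested), 1 in bud 3 (0.00447%), 1 in bud 6 (0.00447%) and 0 in bud 7, with 1289, 1184, 1447 and 296 genes at an unadjusted p below 0.05 by limma. These 5 genes are named because they were called. In bud 2, phospholipase D P1 (Scf00037g01718.1) rose, with 526, 648 and 794 normalized counts in low P, against 198, 171 and 288 in high P (+1.59 ± 0.25, adjusted p = 0.0445). A gene of unknown function (Scf00344g00172.1) fell in bud 2, with 8.20, 8.64 and 8.50 in low P, against 24.1, 36.0 and 22.4 in high P (−1.56 ± 0.23, adjusted p = 0.0349). A myb family transcription factor (Scf41047g00002.1) was listed at 0 in all low P libraries of bud 2, against 17.5, 25.3 and 14.4 in high P (adjusted p = 0.0445). It was present in buds 6 and 7 of both groups and at 0 in 5 of the 6 libraries of bud 3.

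In bud 3, glycerol-3-phosphatase 1 (Scf00469g00218.1) rose, with 1037, 1289 and 1039 in low P, against 304, 410 and 367 in high P (+1.64 ± 0.22, adjusted p = 0.00631). The bud 6 gene (Scf00175g01123.1, no description) was scarce, with 14.0, 13.1 and 11.7 in low P, against 3.79, 1.16 and 2.10 in high P (+2.13 ± 0.31, adjusted p = 0.023). The calls depended on single libraries. The glycerol-3-phosphatase 1 call held without any of 22 of the 24 libraries in turn and was lost without high P bud 3 replicate 1 or low P bud 3 replicate 2. The bud 6 call held in 20 of 24, that of the unknown gene in 11, that of phospholipase D P1 in 5 and that of the myb gene in 4. Without high P replicate 1, all 3 bud 2 calls and the bud 3 call were lost, at adjusted p between 0.113 and 0.226, and the bud 6 gene stayed at 0.005.

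Without high P replicate 1, bud 6 gave 81 genes in place of 1 (0.362% of genes tested), 80 of which were higher in low P, with a median of +1.11 against +0.84 in all libraries. This fit was not planned beforehand and leaves fewer high P than low P libraries, and the median is over genes called in it. Of single bud 6 libraries left out, high P replicate 1 gave 26 genes and low P replicate 1 gave 11. Replicate 2 or 3 of either group gave 0. None of the 81 was on a phosphate or jasmonate list. They included 1-aminocyclopropane-1-carboxylate oxidase 1 (Scf00047g01927.1), the enzyme of the last step of ethylene synthesis, at +2.20, and dormancy-associated protein-like 1 (Scf01100g00009.1) at +1.36. The subtilase Scf00694g00049.1 was at +1.07.

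Whether the response differed by position was tested directly, and 0 of 22363 genes passed by limma for any difference between buds (910 at an unadjusted p below 0.05, lowest adjusted p 0.292). For apical minus basal buds 0 passed as well (1347 at an unadjusted p below 0.05, lowest adjusted p 0.299). Glycerol-3-phosphatase 1 (Scf00469g00218.1) came closest, with an apical minus basal difference of −1.02 ± 0.19 (adjusted p = 0.299), and purple acid phosphatase 17 (Scf00171g00924.1) had −1.57 ± 0.49 (adjusted p = 0.72). The larger estimates in basal buds were therefore not shown to differ from those in apical buds.

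**Figure D5:**
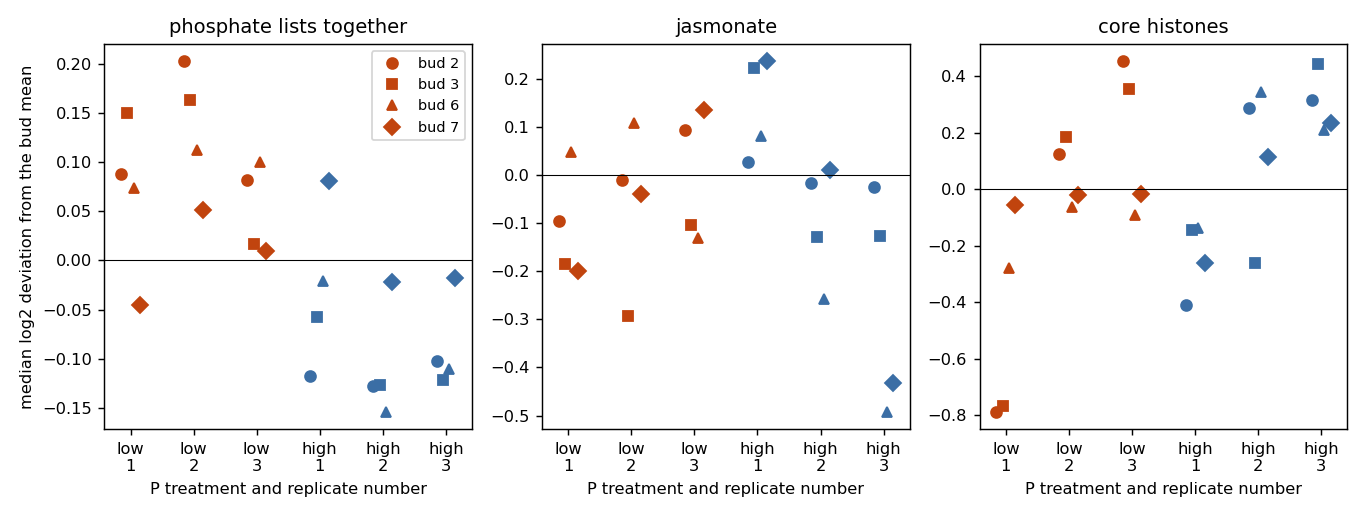
Median log2 deviation from the bud mean of the phosphate, jasmonate and core histone genes in each library, by treatment and replicate number, with low P (orange) left of high P (blue) and a symbol for each bud. The phosphate genes lie at −0.05 to 0.20 in low P and −0.15 to 0.08 in high P, and the overlap comes from bud 7.

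The median of the 40 phosphate genes was also followed library by library, as a deviation from the mean of the same bud. It lay between −0.05 and 0.20 in the 12 low P libraries (median 0.08) and between −0.15 and 0.08 in the 12 high P libraries (median −0.11). In buds 2, 3 and 6 every low P library lay above every high P library. The bud 7 libraries overlapped, with the highest high P value in bud 7 of replicate 1.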

How the data were processed

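The deposited values are gene-level signal, counts that the authors divided by DESeq2 size factors after Trim Galore and Salmon (STAR is also named in the submitters' processing notes) against the Petunia axillaris genome. Whole reads cannot be recovered from them, so no count test was run. Fold changes are on the log2(value + 1) scale and understate changes of scarce genes. The 22363 of 34301 genes with a mean of at least 10 were fitted with limma 3.58.1 (R 4.3.3, statmod 1.5.0) with a variance trend, bud and P as terms, and the pool of one treatment and replicate number as a random block (correlation 0.192, and 0.0421 in the resupply experiment), since the plant numbers in the methods imply that buds of different positions were cut from the same plants. P-values were Benjamini-Hochberg adjusted over all genes tested, and genes were called at an adjusted p below 0.05 with no fold minimum. Fits without a library kept this correlation. The scripts were tested on simulated data.

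Genes were described from the study's supplementary tables only, which cover 3033 of the genes tested, and many of them were listed there for differences between buds or on resupply. Named genes were the 12 described genes with a mean of at least 50 and the lowest p in each direction, all tested members of the 4 phosphate lists, the 3 members with the lowest p of each other list, and 2 without a description in each direction. Members and lists were chosen with earlier results of these data known. Figures were drawn with matplotlib 3.10.9 (Python 3.11.15). No sequences are shown.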

Additional observations from a re-analysis of the deposited data

How the results depend on the processing

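The precision is limited by the 3 pools per treatment, and the deposited normalized values do not keep the number of reads of each library. The pooled count of 0 stayed 0 without any library, replicate number or pool (473 to 2009 genes at an unadjusted p below 0.05) and became 3 with precision weights on each value. With limma on the means of each pool, 3 against 3, the lowest adjusted p was 0.953. In that fit 8 of the 40 phosphate genes were higher in low P at an unadjusted p below 0.05, against 11 in the main fit. The replicate numbers were not taken to pair low P with high P pools: same-numbered libraries correlated over 0.1 in 4 of 12 pairs, which were all 3 of bud 2 (0.149 to 0.310) and 1 of bud 7, and a low P library was closest to its own number in 5 of 12. With the replicate number as a fixed term and no pool block, 14 genes were called (10 higher, 4 lower in low P). Purple acid phosphatase 17, glycerol-3-phosphatase 1 and TIM17-2 were among them. In single buds, bud 6 gave 5 and bud 2 still 3. These fits drop the pool correlation, so buds of one pool count as independent apart from the replicate term. In single buds the settings chosen after seeing the data, each library in turn, gave 0 to 6 calls in bud 2, 0 to 6 in bud 3, 0 to 26 in bud 6 and 0 to 1 in bud 7. Without high P replicate 1 these buds gave 2, 0, 81 and 1, and the test of differences between buds gave 2. That test and apical minus basal gave 0 to 1 without each library. The phosphate median was 0.123 to 0.200 without libraries, and 0.0778 in buds 6 and 7 alone. On resupply 427 genes rose and 922 fell over 2-fold, and without a replicate number 4298 to 5527 rose and 3694 to 5171 fell (5923 without low P bud 3 replicate 3). The medians of the jasmonate, NAC, ethylene synthesis, auxin and cytokinin lists changed sign, and so did some small estimates of single genes that were not called, such as ectonucleoside triphosphate diphosphohydrolase 5 (Scf00378g00010.1) at +0.07, and −0.87 with precision weights.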

Other observations

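Genes in which the groups did not overlap in at least 3 buds were counted as well, a choice made after the values were seen. All low P libraries lay above all high P libraries in 49 genes (0.219% of those tested) and below in 29 (0.13%). Of the 47 of the first set tested in both experiments, 22 fell on resupply (46.8%) and 4 rose (8.51%), and of the 29 of the second set 8 fell (27.6%) and 13 rose (44.8%). Molybdate transporter 1 (Scf00015g00058.1) differed by +0.41 (unadjusted p = 0.027), fell by 1.77 on resupply, and takes up a trace element. The insoluble beta-fructofuranosidase (Scf00096g00715.1), a cell wall invertase that splits sucrose, differed by +0.35, and calcium-dependent protein kinase 21 (Scf00579g00064.1) by +0.40. A 3-oxoacyl-[acyl-carrier-protein] synthase 2 (Scf00038g01959.1), an enzyme of fatty acid synthesis, differed by +1.00 and fell by 3.32 on resupply. In the second set, pheophytinase (Scf01108g00012.1), which acts in chlorophyll breakdown, was at −0.49 with all libraries and −0.13 without high P replicate 1.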
